A study of Mus musculus with 2 samples.

Results

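GABAergic neurons that carry Prdm16, Ano2 and Cpa6 RNA were examined in single-nucleus RNA sequencing of mouse thalamus after cortical damage. A nucleus was counted as a member when it held at least 1 UMI (unique molecular identifier, 1 captured RNA molecule) of Gad1 or Gad2, no UMI of Slc17a6, and at least 4 UMIs in all of Prdm16, Ano2, Cpa6, Col6a3 and Myo5b, with at least 2 of these 5 genes detected. Of 38150 nuclei that passed the study's filter, 329 were members, 320 of them in the injury library and 9 in the sham library. Because the members were chosen by their own measured UMI counts, the levels of the 8 genes of the rule describe the choice, and the levels of all other genes in the same nuclei are given as a description as well, with no test.

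The injury library held nuclei of the ipsilateral thalamus of 4 pooled female C57BL/6J mice, 3 months old, on day 21 after cortical ablation injury, in which sensory and motor cortex was removed by suction through a burr hole. The sham library held nuclei from 4 pooled female C57BL/6J mice of the same age, day and side that had the burr hole alone. Nuclei of both groups came from frozen tissue and were stained with propidium iodide and sorted before 1 droplet library per group was made. As each group was a single pool, differences between the libraries could not be checked in replicates, and all intervals given here cover counting error only.

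GABAergic neurons make their transmitter with the enzymes encoded by Gad1 and Gad2 and load it into vesicles with the transporter encoded by Slc32a1. In rodents most GABAergic neurons near the dorsal thalamus lie in the reticular nucleus, which surrounds the relay nuclei and is known for Six3, Pvalb and the T-type calcium channel gene Cacna1i, and in the zona incerta, ventral geniculate and pretectum, known for Pax6, Lhx1, Lhx5 and Gata3. Zic family zinc-finger factors, the cation channel gene Trpc4 and the receptor gene Crhr2 are known from the lateral septum, a telencephalic nucleus dorsal and rostral to the thalamus, although Zic and Trpc4 transcripts occur in other regions too.

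Members were present at very different shares in the libraries. In the injury library they were 1.47% of filtered nuclei (95% Clopper-Pearson interval 1.31 to 1.64, 320 of 21777), and in the sham library they were 0.055% (0.0251 to 0.104, 9 of 16373), a ratio of 26.7 (13.9 to 59). Among nuclei with Gad1 or Gad2 and no Slc17a6, members were 8.81% in the injury library (320 of 3631) and 0.461% in the sham library (9 of 1954). At a stricter limit of 6 UMIs for the 5 genes, 300 injury nuclei and 0 of 16373 sham nuclei met the rule. When every nucleus was thinned to 3000 UMIs, 206 of 17517 injury nuclei and 0 of 14001 sham nuclei met it. Other GABAergic populations, chosen by their own genes, had less uneven shares. Reticular-like nuclei with Six3 and Ubash3b were 10.3% of GABAergic nuclei in the injury library and 11.5% in the sham library, and nuclei with Pax6, Otof and Cdh23 were 3.25% and 5.42%.

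Another forebrain gene was uneven between the libraries in the same direction. Outside the members, nuclei with at least 2 UMIs of Neurod6, a factor of cortical and hippocampal excitatory neurons, were 0.401% of the injury library (86 of 21457) and 0.0428% of the sham library (7 of 16364). Nuclei with at least 3 UMIs of Prox1 and at least 1 of Slc17a7, a pair found in dentate granule cells among others, were 2.49% (2.28 to 2.71) and 3% (2.74 to 3.27), the opposite order. As other cells carry this pair too, these shares are not those of dentate granule cells alone. The part of tissue dissection in the share of members was not tested, and dissection, pool and injury cannot be told apart with 1 library per group. Filtered nuclei had a median of 6810 UMIs in the injury library and 7190 in the sham library, and 101 barcodes occurred in both libraries, 2 of them in members.

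Distance from the limit differed between the libraries. In the injury library the UMI sum of the 5 genes in members ran from 4 to 103 with a median of 21, and 173 members had 20 or more. In the sham library it ran from 4 to 5. Just inside the limit, at 4 UMIs, there were 7 injury and 5 sham nuclei, and just outside it, at 3 UMIs over at least 2 genes, 19 injury and 4 sham nuclei. The gate on transmitter genes also set the number of members. The condition on the 5 genes alone was met by 441 injury nuclei and 40 sham nuclei. Of the injury nuclei left out, 54 had both Gad and Slc17a6 UMIs, with a median depth of 17244 UMIs and Trpc4 in 90.7% of them, and 34 had none of these 3 transmitter genes, with a median depth of 5383 UMIs and Trpc4 in 76.5%. The other 33 held Slc17a6 alone, with Trpc4 in 33.3%. Of the 40 sham nuclei, 22 held Slc17a6 alone, 7 had none of the 3 transmitter genes and 2 had both Gad and Slc17a6 UMIs. Trpc4 was found in 16 of the 40 and Ano1 in 8, of which 4 had none of the transmitter genes.

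**Figure D1:**
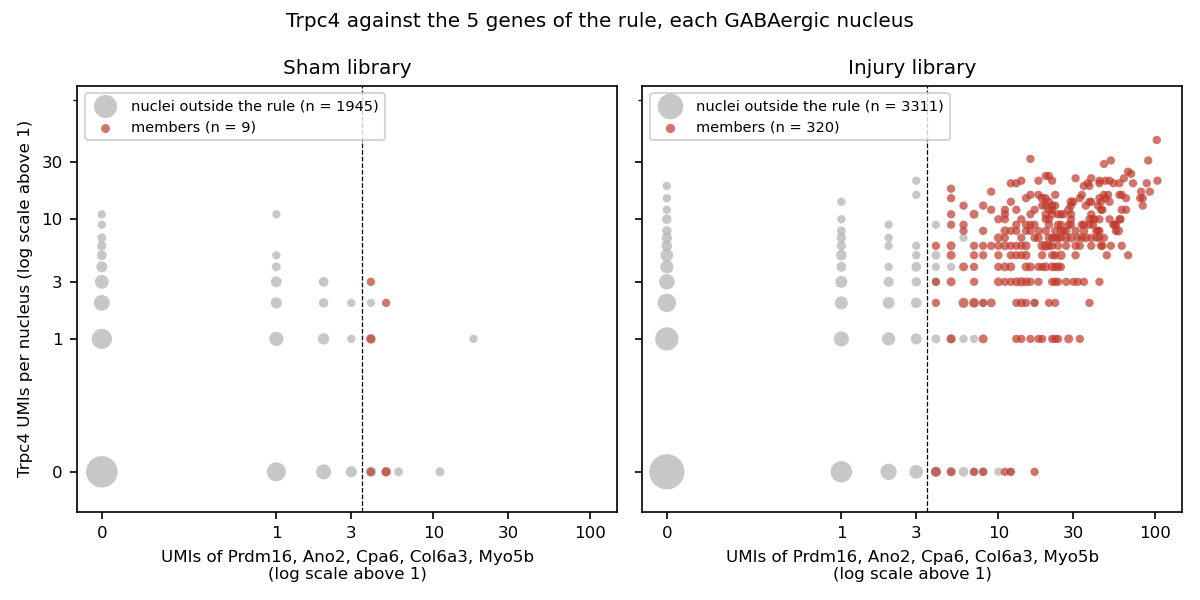
Summed UMIs of the 5 rule genes (x axis) against Trpc4 UMIs (y axis), both on a log scale above 1, for every nucleus with Gad1 or Gad2 and no Slc17a6. Point area grows with the number of nuclei at a position, the dashed line is the limit of 4 UMIs, and grey points to its right have only 1 of the 5 genes. The 9 sham members sit at 4 to 5 UMIs, and the 320 injury members reach 103.

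The 5 genes were not shared evenly among the injury members. Myo5b, a myosin motor of recycling endosomes, was detected in 95.6% of them and Prdm16, a zinc-finger transcription factor, in 91.9%. Ano2, which encodes a calcium-activated chloride channel, was detected in 75.6%, Col6a3, a collagen VI chain, in 60.9%, and Cpa6, a secreted carboxypeptidase, in 55.3%. All 5 genes were found in 95 of the 320 nuclei, 4 in 110, 3 in 69 and 2 in 46. Counts of Cpa6 per nucleus ran from 0 to 57 with a median of 2, and their variance was 14.9 times that expected from counting at the nuclei's depths, against 2.11 times for Prdm16. Both genes were part of the rule, so these values describe the chosen nuclei.

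Trpc4 was not counted by the rule but was listed with its 5 genes as a marker of this group. That list was made with earlier results of these data known, so the Trpc4 level is a description and not independent evidence. It was found in nearly all injury members. The gene lies at chr3:54156035-54318471 on the plus strand (GRCm38, GENCODE M21) and encodes a receptor-operated cation channel. Injury members held 2742 Trpc4 UMIs, 761 CPM (counts scaled to 1000000 UMIs of the group; Poisson interval 733 to 790), in 310 of 320 nuclei, with a median of 7 and a highest value of 46 per nucleus. The 1699 other GABAergic nuclei of that library, defined by at least 3 Gad1 and Gad2 UMIs and no Slc17a6, held Trpc4 at 65.3 CPM with a median of 0. Trpc4 was 11.6-fold higher in members (log2 3.54, interval 3.44 to 3.65). At an equal depth of 3000 UMIs, 86.7% of members, 14.4% of other GABAergic nuclei and 4.95% of oligodendrocyte-like nuclei had a Trpc4 UMI, against 96.9%, 26.9% and 2.32% before thinning (median depths 10021, 8249 and 1820 UMIs). The share of 4.95% came from the 404 oligodendrocyte-like nuclei deep enough for thinning, cells not known for this gene. Reticular-like nuclei had 2.43% at this depth, so 4.95% is not a floor. Of the other GABAergic nuclei, 73 had 4 or more Trpc4 UMIs, as did 249 of 320 members.

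Most injury members fell in 1 cluster when the genes that chose them were withheld. Other genes higher in members, such as Ano1, were not withheld, so this is not independent evidence of 1 population. GABAergic nuclei of both libraries were clustered without the 8 rule genes and without Trpc4, which gave 19 clusters. Of the 320 injury members, 283 fell in 1 cluster (88.4%, interval 84.4 to 91.7), and members made up 93.7% of its 302 nuclei. This cluster held no sham nucleus. The 9 sham members were spread over 5 other clusters, and the 37 remaining injury members over 10. Clustering with Leiden resolution 1.0 or with 1000 variable genes put 283 and 282 of the injury members together.

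**Figure D2:**
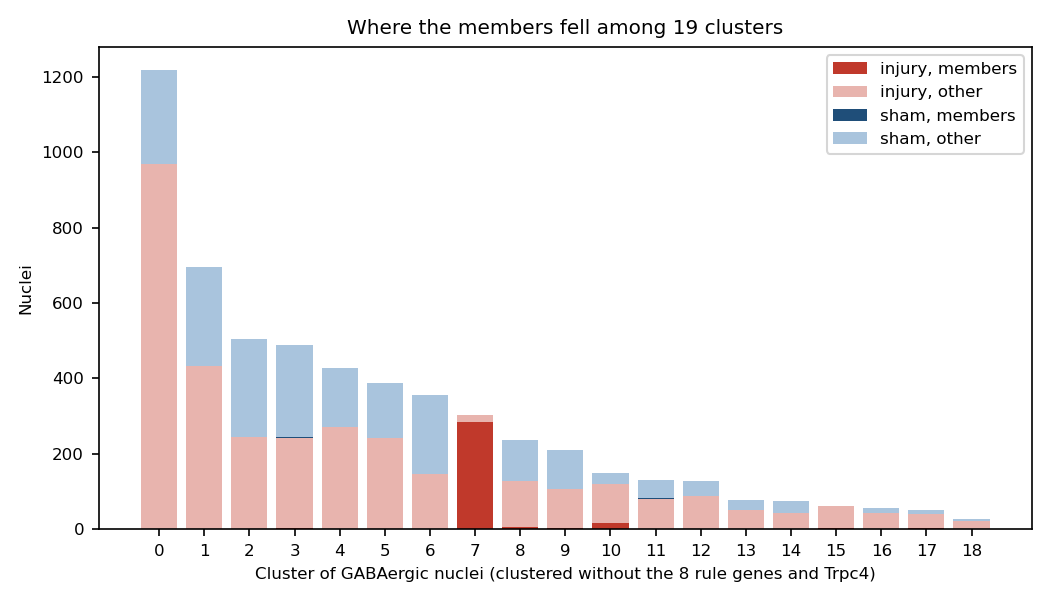
Number of nuclei (y axis) in each of 19 clusters of GABAergic nuclei (x axis), coloured by library and by whether the nucleus met the rule. Cluster 7 holds 283 injury members, 19 other injury nuclei and 0 sham nuclei.

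Nuclei at the edges of this cluster were compared with its core. The 19 nuclei in the cluster that missed the rule had Trpc4 at 945 CPM (771 to 1146), Prkcd at 156 CPM and Grm5 at 5871 CPM, beside 814, 140 and 5241 CPM in its 283 members. Their Ano1 was 45.9 CPM (14.9 to 107) beside 350 CPM (329 to 372), their Pax6 was 55 CPM (20.2 to 120) beside 1.96 CPM, and their Six3 was 36.7 CPM (10 to 94) beside 2.29 CPM. The 37 members outside the cluster had Trpc4 at 461 CPM (406 to 522) and Tcf7l2, a factor of thalamic relay neurons, at 157 CPM (126 to 194), beside 20.9 CPM (16.1 to 26.7) for Tcf7l2 in the cluster. A second cluster, number 15, had 62 injury nuclei and no sham nucleus, of which 3 were members and 43 had Trpc4.

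Genes listed for the lateral septum were higher in the members than in other GABAergic nuclei of the same library. Across 13603 genes with at least 50 UMIs in both groups together, 226 were at least 4-fold higher in members, a background of 1.66%, and 431 were at least 4-fold lower, 3.17%, with a median log2 ratio of -0.16 over all genes. Of the 12 listed septal genes 7 had enough UMIs, and 6 of these were at least 4-fold higher, with a median log2 ratio of 2.83. This list was drawn up with earlier results of these data known, so its count is not independent evidence of its direction.

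The Zic genes, zinc-finger factors of forebrain patterning, were higher together. Zic1 (chr9:91358058-91365810, minus strand) was 114 CPM in members and 16 CPM in other GABAergic nuclei, 7.13-fold higher (log2 2.83, 2.60 to 3.07). Zic4 (chr9:91362413-91389348, plus strand) was 96 and 12.3 CPM, Zic2 20.5 and 3.16 CPM, and Zic5 25.8 and 2.32 CPM. Zic1 and Zic4 overlap on opposite strands, and whether counting used the strand is not given in the sources used here. In reticular-like nuclei the 4 genes lay between 1.03 and 7.73 CPM. In the nuclei chosen by Pax6, Otof and Cdh23, Zic1 was 25.6 CPM and Zic4 21.2 CPM, while Zic2 and Zic5 were 1.76 and 0.882 CPM. At 3000 UMIs, Zic1 was detected in 27.2% of members, 5.4% of other GABAergic nuclei, 6.93% of oligodendrocyte-like nuclei and 2.16% of reticular-like nuclei. Whether the 5.4% is background cannot be told, as the oligodendrocyte-like share is not a floor.

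Crhr2, the receptor of urocortins, was 5.92-fold higher (log2 2.56, 1.88 to 3.27), with 44 UMIs in 8.44% of members. Esr1, the estrogen receptor alpha gene, was the exception in the list: it was 10.3 CPM in members and 40.5 CPM in other GABAergic nuclei, 3.94-fold lower (log2 -1.98, -2.50 to -1.50). The other listed genes were too sparse for the comparison, among them Avpr1a with 3 UMIs, Drd3 with 5, Oxtr with 8, Htr1a with 11 and Nts with 13 in all members.

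Forebrain factors were also present. Bcl11b, a zinc-finger factor of several telencephalic neuron types, was 76.6 CPM in members and 17.7 CPM in other GABAergic nuclei, 4.33-fold higher (log2 2.12, 1.87 to 2.36). At 3000 UMIs Bcl11b was detected in 19.6% of members, 4.49% of other GABAergic nuclei and 2.23% of oligodendrocyte-like nuclei. In the 9 forebrain GABAergic factors compared, 0 were past 4-fold in either direction and 7 had an interval above equal levels, beside 16.3% of all genes tested. Their median log2 ratio was 0.72. As an interval narrows when UMIs rise, the 16.3% of all genes is not a share at equal UMIs. Meis2 was 956 CPM in members and 449 CPM in other GABAergic nuclei, Dlx1 was 45.2 and 15.4 CPM, and Sp9 was 20.5 and 6.58 CPM. Meis2, the Dlx genes and Sp9 are factors of GABAergic neurons of the forebrain. Reticular-like nuclei had Meis2 at 784 CPM, close to its level in members.

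Genes of the GABAergic populations native to the thalamic region were low. Of 6 reticular thalamus genes, 4 were at least 4-fold lower in members, with a median log2 ratio of -3.46. Six3 was 3.88 CPM in members, 50.6 CPM in other GABAergic nuclei and 185 CPM in reticular-like nuclei, which were chosen by Six3 and Ubash3b. Pvalb, a calcium buffer, was 2.77 CPM in members and 86.3 CPM in reticular-like nuclei, and Cacna1i was 5.83 and 99 CPM. Neither of these genes was used to choose either group. Spp1 was 3.61 CPM in members and 4.26 CPM in other GABAergic nuclei (log2 -0.24, -1.22 to 0.63).

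Of 6 zona incerta and ventral geniculate genes compared, 4 were at least 4-fold lower, with a median log2 ratio of -2.81. Pax6 had 8 UMIs in all 320 members (2.22 CPM) beside 18.2 CPM in other GABAergic nuclei, and Lhx1 had 5 UMIs (1.39 CPM) beside 12.7 CPM. Of 4 midbrain and pretectal factors, 3 were at least 4-fold lower. Gata3 was 1.11 and 11.5 CPM, and Pax3 had 1 UMI in members, a log2 ratio of -5.57 (-10.88 to -3.08). Sox14 and Pax7 were at 0 in members, but with 29 and 9 UMIs in all other GABAergic nuclei they were too sparse for the comparison.

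Genes of other telencephalic and diencephalic neurons gave a mixed picture. Of 8 cortical interneuron genes compared, 1 was at least 4-fold higher and 4 at least 4-fold lower, and of 7 striatal genes 1 was higher and none lower. Lhx6, a factor of cortical and pallidal interneurons, had 1 UMI in members, and Vip and Npy had 0. Against a floor of 3 UMIs for all members, Npy was 4.03-fold lower, with an upper interval limit of log2 -1.66. Lamp5, a marker of a cortical interneuron class that is expressed elsewhere too, was 6.38-fold higher, 23.9 beside 3.74 CPM. The striatal genes Ppp1r1b and Adora2a had 1 and 0 UMIs, and Penk had 1 UMI, whereas Drd2 was 4.16-fold higher at 31.6 CPM. Of 9 medial septum and basal forebrain genes and 12 hypothalamic genes, 1 each had enough UMIs for the comparison, and the others had under 50 UMIs in both groups together. The compared gene of the medial septum and basal forebrain list was Isl1, lower in members at 14.2 and 53.8 CPM (log2 -1.93, -2.36 to -1.52). The compared hypothalamic gene was Agrp, also lower at 30 and 57.5 CPM (log2 -0.94, -1.24 to -0.65). Slc5a7, the choline transporter gene, was below the limit, with 22 UMIs in members and 25 in other GABAergic nuclei, 6.1 and 1.61 CPM. Prkcd, a protein kinase C gene known from thalamic relay neurons and the central amygdala, was the 1 of 6 relay genes past 4-fold, 137 CPM in members and 10.8 CPM in other GABAergic nuclei, 12.7-fold higher (log2 3.66, 3.41 to 3.93), while Tcf7l2 was 41.6 and 100 CPM. The Prkcd ratio was log2 2.99 against other GABAergic nuclei with at least 1 Gad UMI and 4.31 without called doublets.

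**Figure D3:**
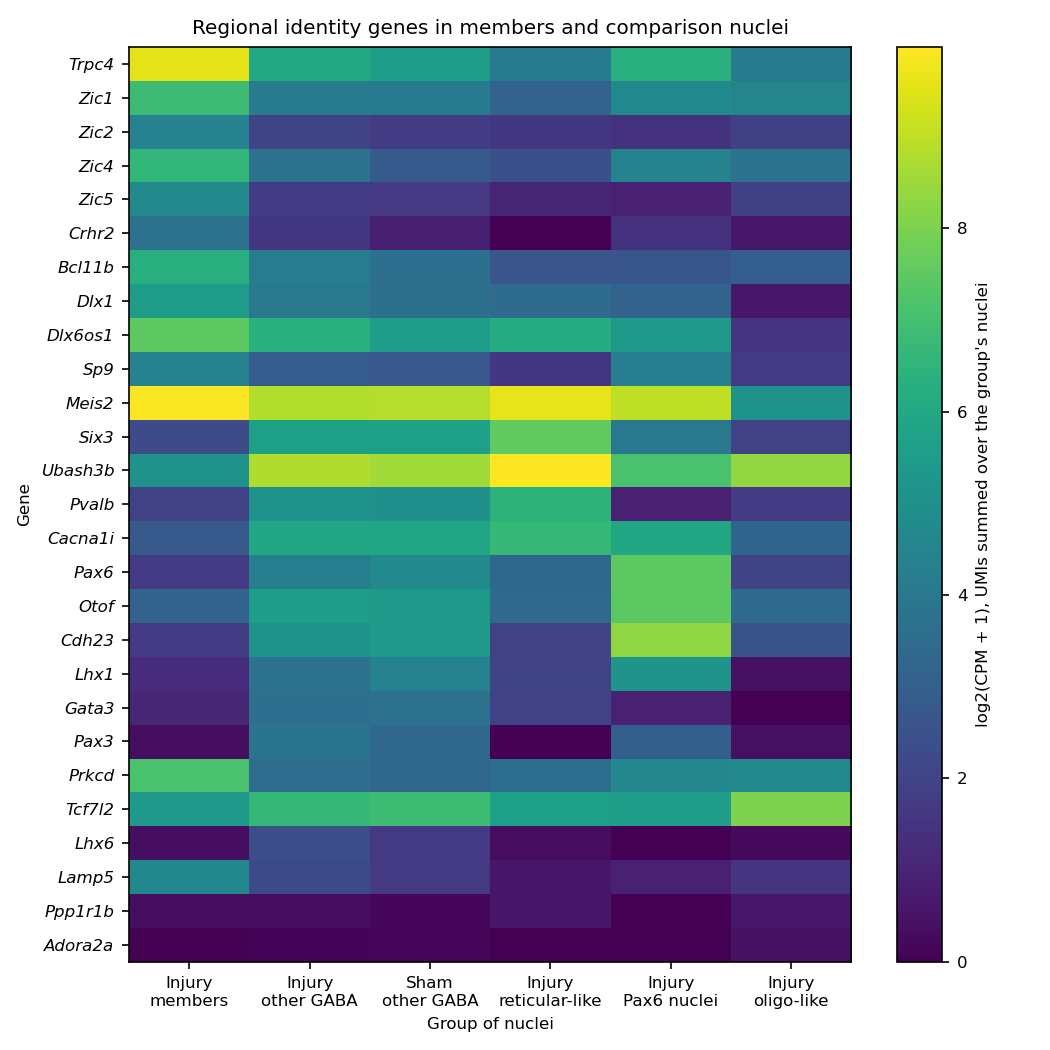
Levels of 27 regional identity genes (rows) as log2(CPM + 1) of UMIs summed over each group of nuclei (columns), from dark (0) to yellow (high). Trpc4 and the Zic genes are highest in the injury members, and Six3, Ubash3b, Pax6 and Cdh23 are lower there than in other GABAergic nuclei, with Trpc4 at 761 CPM in members and 16.5 CPM in reticular-like nuclei.

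Genes of GABA handling that the rule did not use were detected in the members. Slc32a1 was 15.8 CPM in members and 22.5 CPM in other GABAergic nuclei, detected in 16.9% and 18% of nuclei. It was thus lower in members (log2 -0.51, -0.94 to -0.10), and it was 1.82 CPM in oligodendrocyte-like nuclei. Abat, which encodes the enzyme that breaks GABA down, was 160 and 142 CPM. As it was 54.7 CPM in oligodendrocyte-like nuclei, Abat is not particular to GABAergic nuclei. Of the rule genes, Gad1 was 183 CPM and Gad2 256 CPM in members, beside 244 and 419 CPM in the other nuclei, which had to pass a higher Gad limit. The neuronal genes Rbfox3, Snap25 and Map2 were detected in 90.3%, 98.4% and 96.2% of members. Of the listed markers of other transmitters, Slc17a8, Th, Slc6a3, Hdc and Slc6a5 had 0 UMIs, Slc18a3 had 1, Tph2 had 3, Chat had 8 and Slc17a7 had 18. The vesicular monoamine transporter gene Slc18a2 was not on that list and is named after its values were seen. It was 70.8 CPM in members and 23.3 CPM in other GABAergic nuclei, from 255 UMIs in 39.7% of members.

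Neuropeptide genes were sparse in the members. Of 20 listed genes 7 had enough UMIs for the comparison, and 6 had 0 UMIs in members. Pnoc, the nociceptin precursor gene, was 13.6 CPM in members and 13.7 CPM in other GABAergic nuclei (log2 -0.01, -0.49 to 0.44). Sst, encoding somatostatin, was 7.21 and 12.1 CPM. Of 25 listed peptide and steroid receptor genes, 1 had 0 UMIs in members. Glp1r, the receptor of glucagon-like peptide 1, was 33.6 CPM in members and 1.81 CPM in other GABAergic nuclei, 18.6-fold higher (log2 4.22, 3.61 to 4.87), and at 3000 UMIs it was detected in 6.01% of members and 0.424% of the other nuclei. Of the 19 peptide and steroid receptor genes compared, Glp1r and Crhr2 were at least 4-fold higher and 3 were at least 4-fold lower. Oprk1, the kappa opioid receptor gene, was 3.33 and 18.8 CPM.

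By the rule fixed for naming, the 20 genes furthest higher in members had folds from 18.6 to 44, and 18 of them carry a gene name. Col23a1, a transmembrane collagen, was 258 CPM in members and 5.87 CPM in other GABAergic nuclei, 44-fold higher (log2 5.46, 5.15 to 5.79). Col9a3, a collagen IX chain, was 79.1 and 3.61 CPM, and Adamtsl1, a secreted matrix protein, was 1057 and 48 CPM. Ntf3, the neurotrophin-3 gene, was 65.2 and 2.39 CPM, and Ndnf, another secreted neuronal factor, 61.9 and 2.32 CPM.

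Anion channel and transporter genes were also among the 20. Ano1, a relative of the rule gene Ano2 that encodes another calcium-activated chloride channel (chr7:144588549-144751974, minus strand), was 326 CPM in members (308 to 345) and 10.9 CPM in other GABAergic nuclei, 29.9-fold higher, and was found in 83.4% of members. At 3000 UMIs it was found in 54.7% of members, 1.88% of other GABAergic nuclei and 7.43% of oligodendrocyte-like nuclei. Slc26a4, the anion exchanger pendrin, was 36.3 and 1.23 CPM, Clic4 148 and 6.58 CPM, and Clic6 41.1 and 1.68 CPM. Of the other anoctamins, Ano3 to Ano6, none passed 4-fold in either direction. In all, 12 relatives of the rule genes were compared, and beside Ano1 only Prdm12 was at least 4-fold higher (10.8 and 2.13 CPM) and only Mecom at least 4-fold lower (1.39 and 12.2 CPM), both relatives of Prdm16.

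Among the remaining named genes, the kinase gene Tec was 40.8 CPM in members and 1.03 CPM in other GABAergic nuclei. Itpka, an inositol trisphosphate kinase of dendritic spines, was 46.9 and 1.74 CPM, and Enpp1, an ectonucleotide phosphodiesterase, was 41.3 and 1.42 CPM. Mob3b was 181 and 4.45 CPM, Palmd 181 and 7.35 CPM, Igfbpl1 80.7 and 3.22 CPM, and Adam18 38 and 1.48 CPM. Kcng3, a modifier subunit of voltage-gated potassium channels, was 45.2 and 1.87 CPM. None of these 18 genes was above 71.5 CPM in reticular-like nuclei or in the Pax6 nuclei, where Adamtsl1 was 16.2 and 71.5 CPM.

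The 10 genes furthest lower included the transcription factor genes Nr2f2, Six3 and Onecut2. Nr2f2, the nuclear receptor COUP-TFII gene, was 3.05 CPM in members, 64.6 CPM in other GABAergic nuclei and 120 CPM in reticular-like nuclei, 21.2-fold lower (log2 -4.40, -5.41 to -3.56). Its overlapping transcript B130024G19Rik was 25.2-fold lower. Onecut2, a homeobox factor, was 3.33 and 40.4 CPM. Kcnmb2, a subunit of calcium-activated potassium channels, was 51.1 and 777 CPM, Ubash3b 33.6 and 436 CPM, and the microtubule-severing gene Fign 27.7 and 342 CPM. Frmpd1 was 6.1 and 74.1 CPM.

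**Figure D4:**
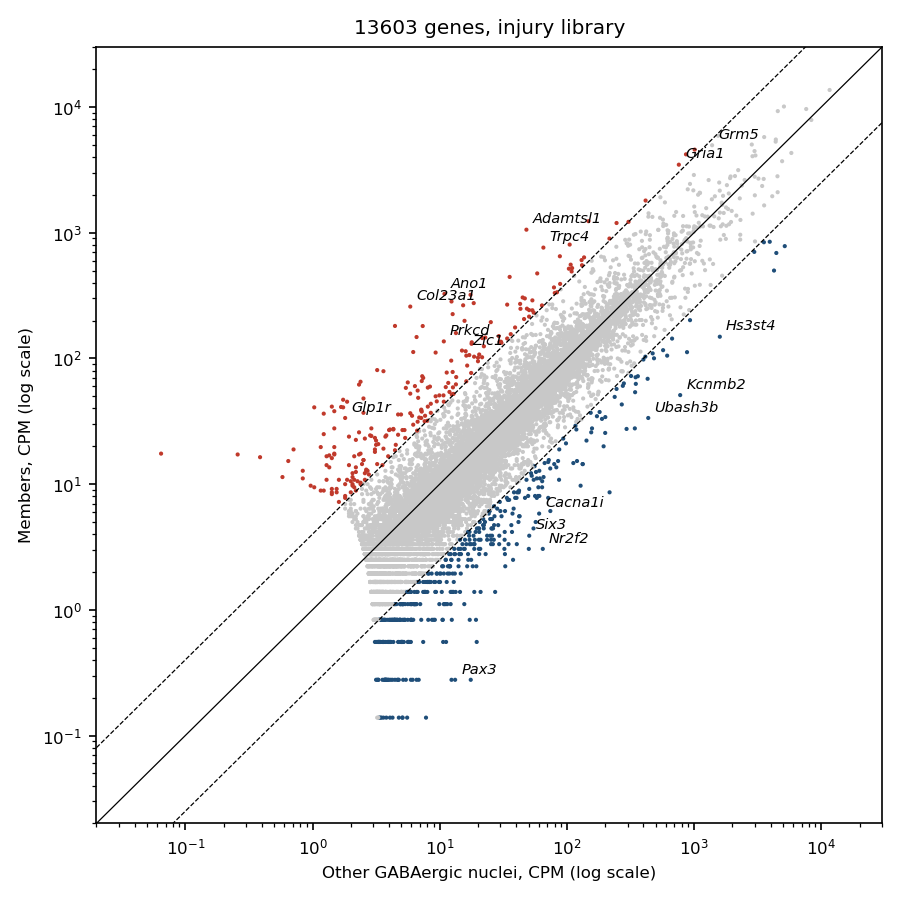
CPM in the 320 members (y axis) against CPM in the 1699 other GABAergic nuclei (x axis) of the injury library for 13603 genes, on log axes, with genes at 0 drawn at 0.5 UMI. Red points are the 226 genes at least 4-fold higher, blue points the 431 at least 4-fold lower, and dashed lines mark 4-fold.

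Other TRPC channel genes differed in both directions. Trpc6 was 87.1 CPM in members and 27 CPM in other GABAergic nuclei, 3.22-fold higher (log2 1.69, 1.47 to 1.90). Trpc5, the closest relative of Trpc4, was lower in members at 94.6 and 152 CPM (log2 -0.68, -0.85 to -0.52), and Trpc7 was 14.2 and 38.8 CPM. Of the 6 TRPC genes compared, 1 was at least 4-fold higher and none 4-fold lower. In pacemaker and T-type calcium channels, Cacna1g was 81.9 CPM in members and 51.4 CPM in other GABAergic nuclei, and Cacna1i was the 1 gene of 7 that was 4-fold lower.

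Receptor genes for glutamate and GABA differed in both directions. Gria1, an AMPA receptor subunit gene, was 3475 CPM in members and 758 CPM in other GABAergic nuclei, 4.58-fold higher (log2 2.20, 2.16 to 2.23), and was detected in 100% of members and 37.9% of reticular-like nuclei. Grm5, a group I metabotropic receptor gene, was 4963 CPM in members and 1384 CPM in other GABAergic nuclei. Gria4 was lower, 893 beside 1776 CPM, and so were Grik2, at 882 beside 2304 CPM, and Grin3a, at 76.9 beside 305 CPM. Of the GABA-A receptor genes, Gabra2 was 823 and 295 CPM, whereas Gabra3 was 81.9 and 213 CPM. Of all 27 subunit genes, 1 was at least 4-fold higher (Gria1), 1 was at least 4-fold lower (Grin2c), 16 had an interval above equal levels and 10 below, beside 16.3% and 31.5% of all genes tested.

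Receptors of neuromodulators were divided in the same way. Of 13 compared, Htr1b (43.6 and 8.51 CPM), Drd2 (31.6 and 7.61 CPM) and Cnr1 (133 and 30.6 CPM), which encode inhibitory receptors for serotonin, dopamine and endocannabinoids, were at least 4-fold higher. Chrm3, a Gq-coupled muscarinic receptor gene, was 882 and 308 CPM, 2.86-fold higher, while Chrm2, a Gi-coupled one, was 185 and 351 CPM. The adrenergic receptor genes Adra1a and Adra1b were at least 4-fold lower, Adra1b at 3.33 and 29.3 CPM.

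Of 9 activity-regulated genes 5 were compared, 0 were past 4-fold and the median log2 ratio was 0.91. Homer1 was 169 CPM in members, 88.3 CPM in other GABAergic nuclei of the injury library and 97 CPM in those of the sham library. Npas4 was 10.3, 5.16 and 9.07 CPM in the same groups, and Fos, with 6 UMIs in members, was 1.66, 0.709 and 6.39 CPM.

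The 9 sham members did not share the pattern of the injury members. They held 8 Trpc4 UMIs in 5 nuclei, 88.8 CPM (38.3 to 175), with 0 to 3 per nucleus, and none reached 4. Ano1 and Prkcd were at 0 in all 9 sham members. Against a floor of 3 UMIs for the group, Ano1 was 9.79-fold and Prkcd 4.1-fold higher in injury members. The lower interval limits were log2 2.99 and 1.73, so these folds are not lower bounds. Mob3b was at 0, and Col23a1 had 1 UMI. Zic1 had 2 UMIs and Zic4 1, all in the same nucleus, which also had 3 Trpc4 UMIs and 2 UMIs of Cpa6. This nucleus, with 12549 UMIs, was the 1 sham member of 9 that the doublet caller Scrublet marked. Pax6 was instead 77.7 CPM (31.2 to 160) in sham members, from 7 UMIs in 4 nuclei, beside 2.22 CPM in injury members, and Cdh23 was 122 and 2.22 CPM. Tcf7l2 was 278 CPM (180 to 410). Of the 9, 8 had only 2 of the 5 rule genes, and the pair was Cpa6 with Myo5b in 4 of them. Prdm16 had 2 UMIs in all 9 nuclei together, and so had Ano2. Meis2 ran from 0 to 23 UMIs per sham nucleus, with 4 of the 9 at 0.

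Members of the injury library differed among themselves in genes chosen after their values were seen. Dach2, a transcription factor gene, was found in 33 of 320 members, with up to 52 UMIs in a nucleus. In these 33 nuclei Crhr2 was 70.7 CPM (45.7 to 104), beside 5.85 CPM (3.52 to 9.13) in the 287 without Dach2, and Stac2, a regulator of L-type calcium channels, was 254 and 64 CPM. Cpa6 was 373 CPM in nuclei with Dach2 and 674 CPM in those without, and as a rule gene it describes the chosen nuclei. Median depths were 8532 and 10046 UMIs. The 33 nuclei with Dach2 thus held 25 of the 44 Crhr2 UMIs.

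Foxp2, a forkhead factor, marked 46 members, of which 3 had Dach2. Erbb4, a neuregulin receptor gene, was 2627 CPM (2497 to 2763) in these and 641 CPM (613 to 671) in the 274 without Foxp2, and Ano2 was 306 and 474 CPM. Slc18a2 was found in 127 members, in which Cpa6 was 863 CPM (818 to 910), beside 469 CPM (439 to 500) in the others. Median depths were 11689 and 9114 UMIs with and without Slc18a2, and 11066 and 9880 UMIs with and without Foxp2. Ano2 and Cpa6 were part of the rule, so their levels in these splits describe the chosen nuclei. In nuclei with and without Cpa6, Trpc4 was 730 CPM (694 to 768) and 801 CPM (757 to 847), and Glp1r was 34.5 CPM (27 to 43.5) and 32.3 CPM (24 to 42.6). Trpc4 was found in 96% of the nuclei with Cpa6 and 97.9% of those without. Gria1 and Grm5 were found in 100% of members, with medians of 32 and 47 UMIs.

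Signs of mixed nuclei were present in a minority of members. Scrublet called 102 of the 320 injury members doublets, 31.9% (26.8 to 37.3), beside 19.3% of other GABAergic nuclei and 17.8% of all filtered nuclei of that library, although called and other members had similar median depths of 10106 and 9985 UMIs. Called members had more Tcf7l2, 77 beside 23.2 CPM, and more of the 6 oligodendrocyte markers, 527 beside 129 CPM, and less Trpc4, 666 beside 810 CPM, and Ano1, 236 beside 373 CPM. At least 2 Tcf7l2 UMIs were found in 26 members and at least 2 UMIs of Mobp, Mog and Mag in 19. In the 277 members with neither, 232 genes were at least 4-fold higher and 628 at least 4-fold lower than in other GABAergic nuclei.

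Without called doublets, 218 injury members were 1.22% of nuclei, and Trpc4 was higher than in other GABAergic nuclei by log2 3.77, Ano1 by 6.23 and Zic1 by 3.14. Six3 was then lower by log2 -6.04, with 2 UMIs left in members. A limit of 1 Gad UMI for the other GABAergic nuclei, with doublets kept, gave smaller ratios. Trpc4 was then higher by log2 3.46, Ano1 by 4.34 and Zic1 by 2.42, beside 3.54, 4.90 and 2.83 as reported. All 6 oligodendrocyte markers were detected in members, summed at 265 CPM beside 169 CPM in other GABAergic nuclei and 10217 CPM in oligodendrocyte-like nuclei, and 18 members had 10 or more of these UMIs. Summed astrocyte markers were 19.7 and 14.6 CPM, microglia markers 91.3 and 106 CPM, and vascular markers 3.33 and 8.45 CPM. Of these markers and those of oligodendrocyte precursors, Tmem119 and Cspg4 were at 0 in members and Pdgfra had 1 UMI. Others were not absent: P2ry12 had 205 UMIs in 41.6% of members, beside 39.3% of other GABAergic nuclei, and Cx3cr1 had 34 UMIs. Slc1a3 was higher in members, 13 beside 6.96 CPM (log2 0.91, 0.38 to 1.41). The choroid and ependymal markers summed to 8 UMIs. The part of mixed nuclei in the genes that differed was not tested beyond the values without them.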

How the data were processed

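Single-nucleus libraries of thalamus from sham-operated and injured mice (1 library per group, each a pool of 4 mice) were used. The deposited values were raw UMI counts per gene and barcode, which the authors made with Cell Ranger 6.0.2 against mm10 (GRCm38), with no normalization. Barcodes numbered 16390 (137850696 UMIs) in the sham library and 21828 (180106314 UMIs) in the injury library. The total sets how small a share can be seen. Gene IDs took symbols from GENCODE M21 (32158 of 32285). Nuclei with 200 to 7500 genes and at most 2% mitochondrial UMIs were kept, 16373 and 21777.

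UMIs were summed over nuclei of a group, scaled to CPM and compared as ratios, with exact Poisson, Clopper-Pearson and conditional ratio intervals (95%), Python 3.11.15 and scipy 1.17.1. Other GABAergic nuclei needed at least 3 Gad1 and Gad2 UMIs, and genes at least 50 UMIs. A group at 0 was set at 3 UMIs. Reticular-like nuclei had at least 4 UMIs of Six3 and Ubash3b with both detected, Pax6 nuclei at least 4 of Pax6, Otof and Cdh23 with 2 detected. Clustering used scanpy 1.11.5 (2000 variable genes, 30 components, Leiden 0.5). Doublets were kept in the reported values and called with Scrublet for alternatives, as were edgeR 4.0.16 TMM and DESeq2 1.42.0 factors. The members, gene lists and comparisons were chosen with earlier results of these data known. Named genes were those of the lists, the 20 furthest higher (at least 100 UMIs in members, found in at least 20% of them) and the 10 furthest lower by the same limits in other GABAergic nuclei. Some listed genes are counted in their lists and not reported here by name. The fold script was tested on simulated counts.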

Additional observations from a re-analysis of the deposited data

How the results depend on the processing

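No paired analysis was possible because the columns are barcodes of a single library in either group, and for the same reason no replicate could be left out. The share of members in the sham library became 0% at 6 UMIs or with nuclei thinned to 3000 UMIs, 0.0183% without Cpa6 in the rule and 0.0122% without Myo5b. In the injury library it became 1.22% without called doublets, 1.18% after thinning, 1.28% without Prdm16 and 1.27% without Myo5b. Genes at least 4-fold higher and lower numbered 619 and 693 with no minimum beyond 3 UMIs and 125 and 208 with at least 200 UMIs, since fewer or more genes then entered. The median log2 ratio of the septal list was 2.57 against other GABAergic nuclei with at least 1 Gad UMI and 3.58 against those of the sham library, an alternative added after seeing the data, and that of the reticular list was -4.05 without called doublets. The median of the zona incerta and ventral geniculate list went from -2.81 to -3.64 in members without Tcf7l2 or oligodendrocyte UMIs, also an added alternative. TMM and DESeq2 scaling shifted every log2 ratio by 0.11 and 0.12. No other alternative moved these counts by over 1.5 times, and none of the alternatives run reversed a direction. Depth limits genes under 50 UMIs, among them most peptide genes, and the 9 sham members, whose 90087 UMIs put a floor of 3 UMIs at 33.3 CPM.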
